A study of Mus musculus with 6 samples.

Results

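The genes described here are 10 imprinted genes that act on growth: *H19*, *Igf2*, *Dlk1*, *Meg3*, *Peg3*, *Mest*, *Cdkn1c*, *Grb10*, *Plagl1* and *Nnat*. They were taken by symbol from the 47729 genes that the authors quantified in brown adipose tissue (BAT), and each symbol matched 1 gene. The list was drawn up with H19 in view when the diet comparison of these mice was already known, so every difference between diets in a member is given as a description, with no p-value. Counts of members past a threshold are printed beside those of all genes, and nothing is read from them. The samples were the interscapular BAT of 6 wild type male C57BL/6J mice. A low-fat diet (LFD, a standard rodent diet) was fed to 3 of them and a 45% high-fat diet (HFD) to the other 3, from 6 to 10 weeks of age. Total RNA, depleted of ribosomal RNA, was read from 1 end over 75 bases. Mice are named by diet and replicate number, such as LFD 1. The mice sequenced in each diet were chosen by the study for the greatest, medium and least fat mass, and the sources used here do not say which number is which.

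An imprinted gene is transcribed from only the maternal or only the paternal copy, according to DNA methylation laid down in the germ line. *Igf2*, *Dlk1*, *Peg3*, *Mest*, *Plagl1* and *Nnat* are transcribed from the paternal copy, and *H19*, *Meg3* and *Cdkn1c* from the maternal copy, as is *Grb10* in most tissues. Many of these genes are highly expressed in the fetus and are turned down after birth, and several are known from adipose tissue, where *Dlk1* marks preadipocytes and *Mest* is tied to fat cell enlargement. Gene counts do not show which parental copy a read came from.

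Of the members, 4 host a named microRNA on their own strand. *Meg3* also holds *Mir1906-1*, with at most 1.48 counts in a mouse, and *Gm23134*, annotated as a microRNA, lies opposite *Nnat*. Mature microRNAs are shown because they are the part of these host RNAs with a known sequence-specific role. The other arms, mmu-miR-483-5p, mmu-miR-335-3p and mmu-miR-770-5p, are not printed. Capitals mark the seed, bases 2 to 8, and the sequences are those of RefSeq on GRCm38.p6.
mmu-miR-675-5p, in an exon of *H19*: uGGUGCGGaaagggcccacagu
mmu-miR-675-3p, in an exon of *H19*: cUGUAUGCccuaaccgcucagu
mmu-miR-483-3p, in an intron of *Igf2*: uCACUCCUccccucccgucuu
mmu-miR-335-5p, in an intron of *Mest*: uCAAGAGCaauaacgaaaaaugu
mmu-miR-770-3p, in an exon of *Meg3*: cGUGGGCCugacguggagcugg
These 5 seeds all differ. The hairpin of *Mir675* lies at chr7:142577064-142577147 on the minus strand of GRCm38, and *Mir675*, *Mir483*, *Mir335* and *Mir770* are each listed at an expected count of 0 in every mouse, so the values below are those of the host genes.

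RefSeq start sites gave 15 promoter windows, each of 250 bases before to 50 bases after a start, for 8 of the members. *H19* and *Cdkn1c* are not among them. The hexamer TGCCGC, which the zinc finger protein ZFP57 recognises in its methylated form at imprinting control regions, was searched on both strands. It was present in 7 of the 15 windows (46.7%), which belong to 6 of the 8 genes, while 11.6% of all 32851 windows held it. The windows of *Mest* at its downstream start overlap almost fully, and windows of the members had a median G+C content of 59.3% against 52.7% over all windows. A match is a description of these letters and shows no binding. A window each of *Meg3*, *Igf2* and *Nnat* that held it is shown 5′ to 3′ along the gene, with the match in capitals, which reads as its reverse complement on this strand.
*Meg3*, chr12:109540746-109541045, plus strand: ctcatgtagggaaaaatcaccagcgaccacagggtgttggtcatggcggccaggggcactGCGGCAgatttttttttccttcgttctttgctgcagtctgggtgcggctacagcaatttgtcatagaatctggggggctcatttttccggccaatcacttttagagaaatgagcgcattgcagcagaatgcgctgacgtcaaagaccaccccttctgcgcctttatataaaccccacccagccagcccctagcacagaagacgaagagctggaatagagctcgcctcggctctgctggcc
*Igf2*, chr7:142661222-142661521, minus strand: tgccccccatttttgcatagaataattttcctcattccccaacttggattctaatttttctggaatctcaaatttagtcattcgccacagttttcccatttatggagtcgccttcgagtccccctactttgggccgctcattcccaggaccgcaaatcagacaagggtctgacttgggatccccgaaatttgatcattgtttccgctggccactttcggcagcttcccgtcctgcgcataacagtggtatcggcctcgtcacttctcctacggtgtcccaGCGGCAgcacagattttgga
*Nnat*, chr2:157559828-157560127, plus strand: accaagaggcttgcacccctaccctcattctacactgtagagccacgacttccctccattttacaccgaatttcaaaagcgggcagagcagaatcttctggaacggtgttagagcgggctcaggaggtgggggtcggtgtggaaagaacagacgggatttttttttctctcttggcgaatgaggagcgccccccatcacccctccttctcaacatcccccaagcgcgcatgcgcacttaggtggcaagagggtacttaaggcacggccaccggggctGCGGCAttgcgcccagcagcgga

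Between 17156991 and 21603487 rounded expected counts were available per mouse, of which mitochondrially encoded genes took 8.50% to 22.7% under HFD and 3.87% to 13.8% under LFD. *Ucp1*, which defines brown adipocytes, was at 2728, 4021 and 796 TPM (the share of transcripts, scaled by gene length and library) in HFD 1, 2 and 3, and at 443, 11.0 and 76.0 TPM in LFD 1, 2 and 3. All 6 mice expressed it, LFD 2 and LFD 3 the least. The 13 skeletal muscle markers, such as *Acta1* and *Ckm*, did not overlap between the diets on the TPM scale. Their summed level was 5506, 13117 and 1893 TPM in LFD 1, 2 and 3, and 45.0, 196 and 8.18 TPM in HFD 1, 2 and 3. The progenitor and fibroblast markers (8 genes, such as *Pdgfra* and *Col1a1*) summed to 1437, 8503 and 26344 TPM in LFD 1, 2 and 3 and to between 3327 and 4976 TPM in HFD-fed mice. All 3 muscle-rich libraries and the 2 with the highest sum of fibroblast markers were thus from LFD-fed mice. Fewer cells of a type cannot be told apart from less RNA per cell in bulk tissue.

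The members were expressed at different levels. By the median TPM over the 6 mice, the order was *Nnat* (55.1), *Grb10* (42.1), *H19* (38.6), *Meg3* (38.1), *Peg3* (14.4), *Plagl1* (9.40), *Cdkn1c* (7.96), *Mest* (6.06), *Igf2* (1.79) and *Dlk1* (1.44). No pair of neighbours in this order was ranked the same way in all 6 mice. *Meg3* lay above *Peg3* in 5 mice, *Grb10* lay above *H19* in 3 and *H19* above *Meg3* in 3. Neighbours among the 4 most abundant members were thus not separable from each other, nor were the 2 least abundant. *Grb10* lay above *Meg3* in all 6 mice, though in LFD 3 only by 245.34 against 245.08 TPM. The ratio of the highest to the lowest mouse was 54.1 for *Meg3*, 36.8 for *H19* and 34.9 for *Dlk1*, and it was smallest for *Cdkn1c*, at 2.92.

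**Figure D1:**
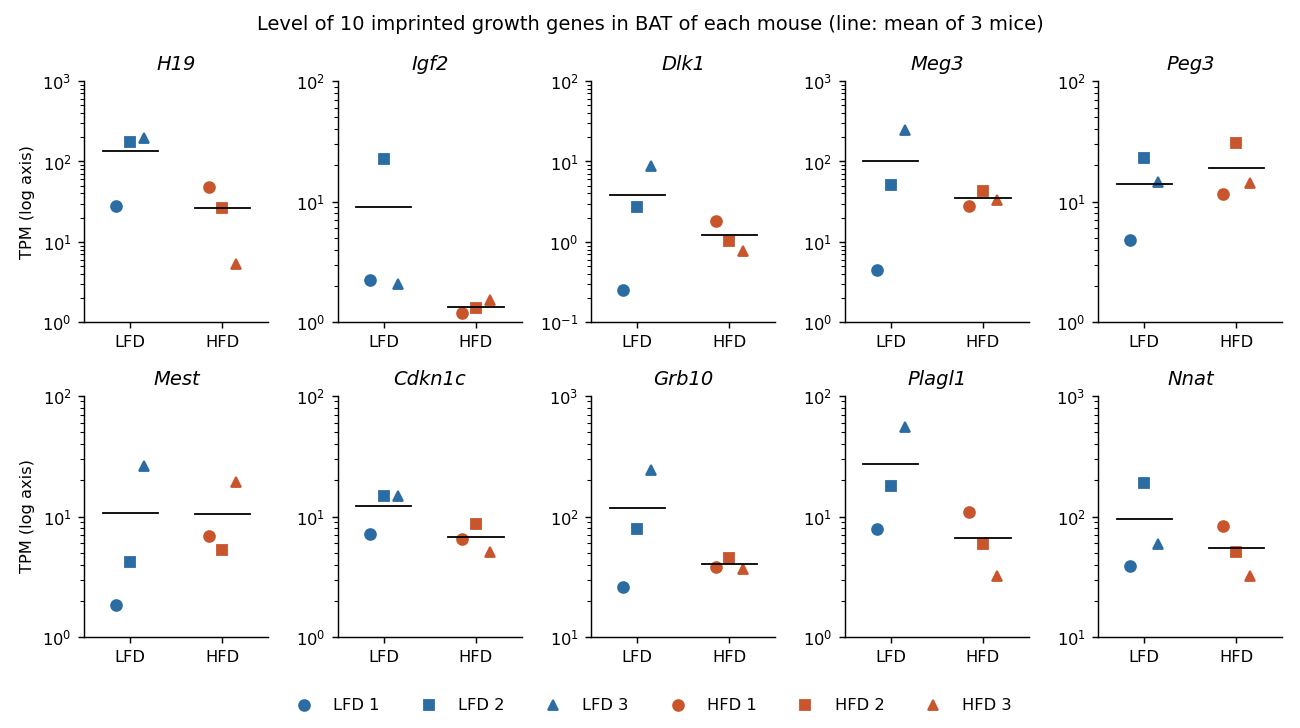
TPM on a log axis for each of the 10 genes in the 3 LFD-fed and 3 HFD-fed mice, with a line at the mean of each diet. In *Igf2* alone the diets do not overlap, and in *Meg3*, *Grb10* and *Dlk1* the LFD-fed mice spread above and below the HFD-fed mice.

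*H19* is a noncoding RNA that shares an enhancer domain with *Igf2*, and in adult mice it persists mainly in skeletal muscle. It lies on chromosome 7 from 142575529 to 142578143 on the minus strand (GRCm38). Its level was 48.8, 26.2 and 5.31 TPM in HFD 1, 2 and 3, and 28.4, 177 and 195 TPM in LFD 1, 2 and 3. LFD 2 and LFD 3 were far above the rest, HFD 3 was far below, and LFD 1 lay inside the range of the HFD-fed mice. The mean over HFD-fed mice was 26.8 ± 21.8 TPM (SD, n = 3), and over LFD-fed mice it was 134 ± 91.5 TPM (SD, n = 3). The fitted log2 fold change, HFD over LFD, was -1.64 with a standard error of 0.94. It was -2.85 without HFD 1 and -1.13 without HFD 3, and it stayed negative with each mouse left out. Each of these fits kept LFD 2 or LFD 3, the 2 highest mice, so the unchanged sign says little about the diets. The counts behind these values were 174 to 4648 per mouse, and the credibility interval that RSEM gives for the TPM (level not stated) was 4.71 to 6.83 in HFD 3 and 183 to 197 in LFD 3. Error of counting was therefore small beside the spread between mice.

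*H19* and the sum of the skeletal muscle markers did not have the same order through the mice. HFD 3 was lowest in both, at 5.31 and 8.18 TPM, and LFD 2, highest in the muscle sum, had 177 TPM of *H19*. LFD 1 had the second highest sum of muscle markers, 5506 TPM, and an *H19* level of 28.4 TPM, close to the 26.2 TPM of HFD 2, whose muscle sum was 196 TPM. LFD 3 had a muscle sum of 1893 TPM and the highest *H19* level. The sum of the progenitor and fibroblast markers was highest in LFD 3 and LFD 2, the mice with most *H19*. It was lowest in LFD 1, where *H19* was above its level in HFD 2 and HFD 3. *Col3a1* made up most of this sum, at 874 TPM in LFD 1 and 18377 TPM in LFD 3, and single markers differed. In TPM, *Ly6a*, *Col1a1* and *Col3a1* were lowest in LFD 1, and *Pdgfra* and *Cd34* in HFD 1. *Dpp4*, *Lum* and *Pi16* were lowest in HFD 3, where *H19* was lowest too. The part of either cell type in the *H19* difference was not tested.

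*Igf2* encodes insulin-like growth factor 2, a fetal growth factor that signals through the IGF1 and insulin receptors. It lies on chromosome 7 from 142650766 to 142666816, upstream of *H19* on the same strand. It was at 1.20, 1.31 and 1.52 TPM in HFD 1, 2 and 3 and at 2.25, 22.7 and 2.06 TPM in LFD 1, 2 and 3. LFD 2 stood alone, at about 10 times the next mouse. All HFD-fed mice were below all LFD-fed mice in TPM. The RSEM interval of every HFD-fed mouse, however, overlapped those of LFD 1 (2.15 to 3.91 TPM) and LFD 3 (1.95 to 4.42 TPM). These intervals were 1.20 to 2.48 TPM in HFD 1, 1.28 to 3.14 TPM in HFD 2 and 1.38 to 3.19 TPM in HFD 3. On the scale of log2 CPM (log2 of counts scaled to library size with TMM factors) the diets overlapped, with 1.67 in LFD 3 and 2.09 in HFD 1. The edgeR fit gave a log2 fold change of -2.47 with a standard error of 0.95. Without LFD 2 it was -0.70, and blocking on the replicate number gave -1.65. The *Igf2* difference was thus mostly that of LFD 2. This mouse also had the highest sum of skeletal muscle markers and a sum of 39.2 TPM for 5 muscle precursor markers (*Pax7*, *Myf5*, *Myod1*, *Myog* and *Myf6*), against 3.72 and 3.90 TPM in LFD 1 and 3 and at most 0.09 TPM in HFD-fed mice. Most of this sum in LFD-fed mice was *Myf6*, at 3.36, 25.8 and 2.78 TPM in LFD 1, 2 and 3. In LFD 2, *Pax7* was at 0.46 TPM and *Myf5* at 1.29 TPM. The part of the muscle and muscle precursor markers in the *Igf2* value was not tested.

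The chromosome 7 neighbours shared their extremes in log2 CPM, both highest in LFD 2 and lowest in HFD 3, but parted in LFD 3. The root-mean-square difference of their centred log2 CPM over the 6 mice was 1.41. In LFD 3, *H19* was the highest of all mice in TPM, at 195, while *Igf2*, at 2.06, was close to the HFD-fed mice. *Ins2*, the insulin gene next to *Igf2*, was at 0.19 TPM in LFD 2 and listed at 0 in the other mice. *Igf2os*, an RNA on the opposite strand to *Igf2*, did not exceed 0.07 TPM in any mouse. The sources used here do not say whether reads were counted by strand, so reads of *Igf2* and *Igf2os* cannot be told apart, nor can those of *Mest* and *Copg2* or of *Cdkn1c* and *Gm44732*, whose exons overlap on opposite strands. *Gm23134* likewise overlaps an exon of *Nnat*, with 36.8 to 191 counts. *Gm44732* had at most 23.4 counts in a mouse, and *Copg2* had 635 to 1088.

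**Figure D2:**
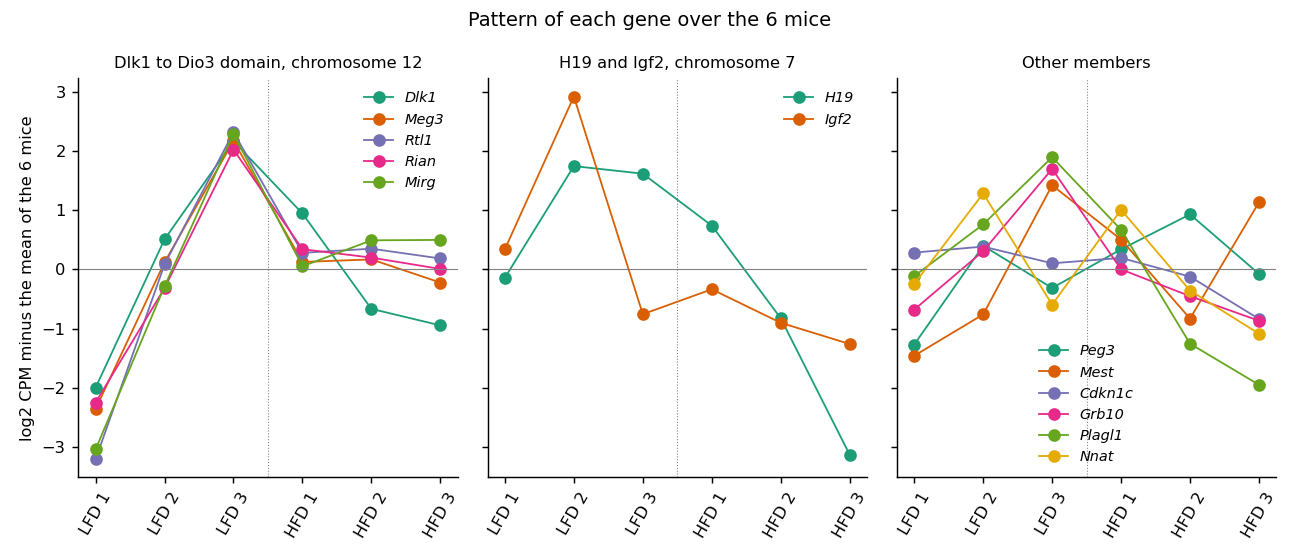
Log2 CPM of each gene minus its mean over the 6 mice, with the LFD-fed mice on the left and lines that only join the points of a gene. The 5 genes of the chromosome 12 domain are lowest in LFD 1 and highest in LFD 3, while *H19* and *Igf2* part in LFD 3.

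The pair *Dlk1* and *Meg3* opens an imprinted domain of chromosome 12. *Dlk1*, from 109452823 to 109463336, encodes a membrane protein that holds preadipocytes back from differentiation. It was at 0.25, 2.68 and 8.72 TPM in LFD 1, 2 and 3, and at 1.84, 1.04 and 0.77 TPM in HFD 1, 2 and 3. The LFD-fed mice enclosed the HFD-fed mice, and the value of LFD 1 rests on 5 counts. Its fitted log2 fold change, -1.06 (standard error 1.05), turned to 0.28 without LFD 3.

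*Meg3*, from 109541001 to 109571726, is a noncoding RNA of the maternal copy. Its level was 4.53, 51.0 and 245 TPM in LFD 1, 2 and 3, and 27.9, 43.0 and 33.2 TPM in HFD 1, 2 and 3. The HFD-fed mice differed by less than 2-fold, while the LFD-fed mice spanned the whole range. The fitted log2 fold change was -0.91 (standard error 0.94). It turned to 0.68 without LFD 3 and to 0.030 with the replicate number as a block, and the mean log2 CPM was 5.83 under HFD and 5.79 under LFD. *Meg3* thus had no stable direction between the diets.

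Other genes of the domain had the same extremes. *Rian*, a noncoding host of small nucleolar RNAs, was at 19.03, 111 and 688 TPM in LFD 1, 2 and 3 and at 99.9, 129 and 124 TPM in HFD 1, 2 and 3. *Mirg*, which hosts many microRNAs, was at 0.55, 5.62 and 42.5 TPM in LFD 1, 2 and 3 and at 3.10 to 10.2 TPM in HFD-fed mice. *Rtl1*, a retrotransposon-derived gene of the paternal copy that is needed for placental growth, was at 0.09, 1.72 and 9.26 TPM in LFD 1, 2 and 3 and at 1.05 to 1.79 TPM in HFD-fed mice. All 5 of these genes, *Dlk1* and *Meg3* included, were lowest in LFD 1 and highest in LFD 3, on the TPM and on the log2 CPM scale. These extremes were not particular to the domain, since *Mest* and *Igf2r*, on other chromosomes, had them on both scales too. Among 17668 genes ranked by the root-mean-square difference of their centred log2 CPM over the 6 mice, *Rian* was the fourth most like *Meg3*, with a difference of 0.23. For *Rtl1* it was 0.40, for *Mirg* 0.46 and for *Dlk1* 0.60. Between *Mirg* and *Rtl1* it was 0.24, and between *Dlk1* and *Mirg* it was 1.00. Each of these noncoding RNAs and *Rtl1* had an adjusted p of at least 0.889 between the diets by edgeR's quasi-likelihood test. *Dio3*, at the other end of the domain, did not exceed 0.17 TPM in any mouse. The sum of the progenitor and fibroblast markers was also lowest in LFD 1, at 1437 TPM, and highest in LFD 3, at 26344 TPM. This sum was mostly *Col3a1*, and *Pdgfra*, *Cd34*, *Dpp4*, *Lum* and *Pi16* were not lowest in LFD 1. The part of these markers in the pattern of the domain was not tested.

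Of the members that restrain growth, *Grb10*, *Plagl1* and *Cdkn1c* had negative fitted log2 fold changes, as had *Igf2* and *Dlk1*, and the diets overlapped in each of the 3. *Grb10*, an adaptor that dampens insulin and IGF1 receptor signalling (chromosome 11, from 11930508 to 12038683), was at 26.1, 78.6 and 245 TPM in LFD 1, 2 and 3 and at 38.5, 45.6 and 37.1 TPM in HFD 1, 2 and 3. The HFD-fed mice were tightly grouped, with a mean of 40.4 ± 4.56 TPM (SD, n = 3), and LFD 1 lay below all of them. Its fitted log2 fold change was -1.16 (standard error 0.61), and -0.30 without LFD 3. *Ddc*, the neighbouring gene, which encodes aromatic L-amino acid decarboxylase, was at 0.16, 2.05 and 3.82 TPM in LFD 1, 2 and 3 and at 0.47, 0.83 and 0.37 TPM in HFD 1, 2 and 3, for which edgeR gave a log2 fold change of -1.42 (standard error 0.81) and an adjusted p of 0.618. Both genes had their highest level in LFD 3 and their lowest in LFD 1 in TPM.

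*Plagl1* encodes a zinc finger transcription factor that can arrest the cell cycle (chromosome 10, from 13060504 to 13131694). It was at 7.89, 17.8 and 55.6 TPM in LFD 1, 2 and 3 and at 10.9, 5.96 and 3.19 TPM in HFD 1, 2 and 3. HFD 1 lay above LFD 1, and the other HFD-fed mice lay below all LFD-fed mice. The fitted log2 fold change was -1.49 (standard error 0.80). Without HFD 1 it was -2.65 and without LFD 3 it was -0.80, so the sign stayed and the size did not. Among the members, *Plagl1* had the pattern most like that of *H19*, with a root-mean-square difference of 0.66 log2 units, the 26th smallest among 17668 genes.

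*Cdkn1c* encodes p57, a cyclin-dependent kinase inhibitor (chromosome 7, from 143458339 to 143461050). It was at 7.18, 14.7 and 14.9 TPM in LFD 1, 2 and 3 and at 6.51, 8.73 and 5.11 TPM in HFD 1, 2 and 3. In TPM the diets overlapped only through LFD 1 and HFD 2, and in log2 CPM only through LFD 3 (3.39) and HFD 1 (3.48). The HFD-fed mouse was higher in 0 of 3 same-numbered pairs on both scales, as in *Igf2*. It varied least among the members, with a fitted log2 fold change of -0.46 (standard error 0.32) that ranged from -0.71 to -0.22 with a mouse left out. *Kcnq1ot1*, the noncoding RNA of the paternal copy that silences *Cdkn1c*, had 1.22, 6.20 and 4.52 TPM in LFD 1, 2 and 3 and 1.49, 3.99 and 3.66 TPM in HFD 1, 2 and 3. In each diet it was lowest in mouse 1, unlike *Cdkn1c*, which in HFD-fed mice was lowest in mouse 3.

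Of the remaining members, *Peg3* was the one with a higher fitted level in HFD-fed mice and the same sign in every fit run. *Peg3* encodes a large zinc finger protein (chromosome 7, from 6703892 to 6730431). It was at 4.81, 23.0 and 14.4 TPM in LFD 1, 2 and 3 and at 11.7, 30.8 and 14.3 TPM in HFD 1, 2 and 3. The diets overlapped. The HFD-fed mouse was higher in 3 of 3 same-numbered pairs in log2 CPM but in 2 of 3 in TPM, since the values of mouse 3 were nearly equal. The log2 fold change was 0.70 (standard error 0.46). *Usp29*, which starts next to *Peg3*, had 0.42 to 2.93 TPM, and *Zim1* had 0.25 to 2.52 TPM, both with overlapping diets.

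*Mest* encodes a protein of the alpha/beta hydrolase fold (chromosome 6, from 30723547 to 30748465). It was at 1.84, 4.20 and 26.3 TPM in LFD 1, 2 and 3 and at 6.88, 5.24 and 19.5 TPM in HFD 1, 2 and 3. In both diets mouse 3 was highest, and the means were nearly equal, at 10.5 ± 7.78 TPM under HFD (SD, n = 3) against 10.8 ± 13.5 TPM under LFD (SD, n = 3). Its log2 fold change of 0.20 (standard error 0.83) ranged from -0.29 without HFD 3 to 1.56 without LFD 3, and was 0.49 with the replicate number as a block. *Copg2*, convergent with *Mest*, was at 15.7 to 29.2 TPM, and *Klf14* at no more than 0.36 TPM.

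*Nnat* encodes neuronatin, a small protein of the endoplasmic reticulum (chromosome 2, from 157560078 to 157562522). It was at 38.8, 190 and 59.5 TPM in LFD 1, 2 and 3 and at 83.0, 50.8 and 32.3 TPM in HFD 1, 2 and 3. LFD 2 was highest and the other mice of both diets overlapped. In the fit the log2 fold change was -0.27 (standard error 0.68), and it was 0.53 without LFD 2 and 0.09 without HFD 3. *Blcap*, in whose intron *Nnat* lies on the opposite strand, was at 41.3, 48.2 and 25.0 TPM in LFD 1, 2 and 3 and at 21.5 to 26.7 TPM in HFD-fed mice (log2 fold change -0.60, standard error 0.48, edgeR adjusted p = 0.758).

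All 10 members passed edgeR's filter on low counts. In the fit 8 were lower and 2 higher under HFD, and their log2 fold changes had a median of -0.99, while 54.4% of all tested genes were lower and their median was -0.05. Under the study's criteria (adjusted p below 0.01, log2 fold change beyond 1.5 in size), edgeR's quasi-likelihood test called 0 members, against a background of 0% of all genes in either direction. The fit put 1 member below an unadjusted p of 0.05 on the lower side, where 6.62% of all genes lay, and 0 on the higher side, where 3.86% lay. These counts are no evidence about the members, which were chosen with this contrast known. DESeq2 called 0 members too, with 1.5% of genes called lower and 0.523% called higher. In log2 CPM, 0 of 10 members had diets that did not overlap, where 9.23% of all tested genes lay fully lower and 6.72% fully higher in HFD-fed mice. In TPM, *Igf2* was the 1 member whose diets did not overlap, against 11.6% of all tested genes on the lower side and 1.65% on the higher.

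**Figure D3:**
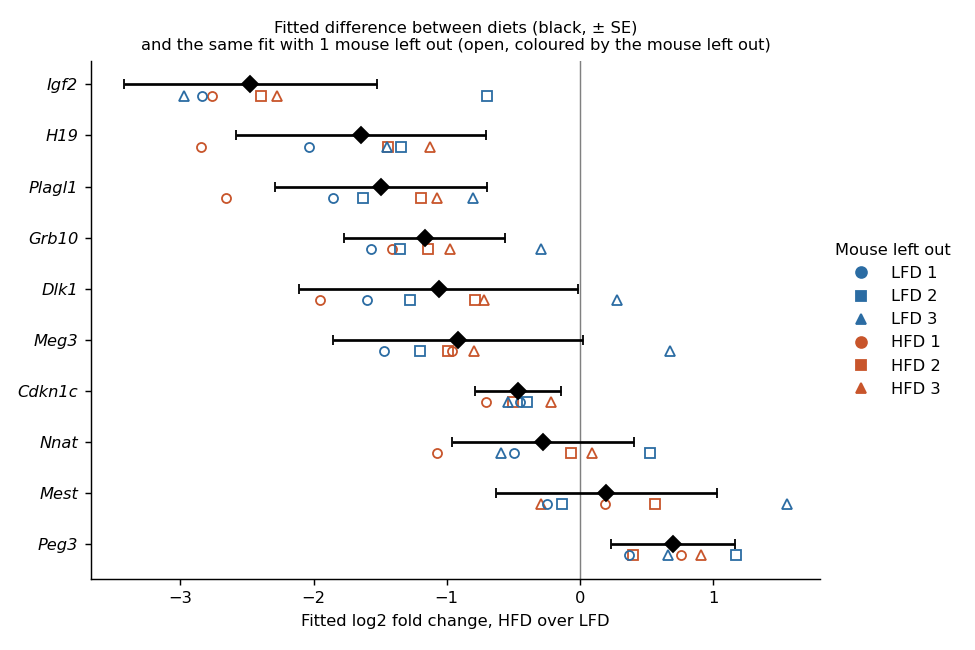
Fitted log2 fold change of each member, HFD over LFD, with its standard error in black, and below it the same value with each mouse left out in open symbols. *Dlk1*, *Meg3*, *Mest* and *Nnat* cross 0 when a mouse is left out, and *Igf2* moves to -0.70 without LFD 2.

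The members varied widely between mice of the same diet. Over all tested genes the median within-diet SD of log2 CPM was 0.49. It was 1.65 for *Dlk1*, 1.61 for *Meg3*, 1.56 for *H19* and 1.37 for *Igf2*, which placed these genes at the 95.0 to 97.5 percentile of all tested genes. *Cdkn1c* was below the median, at 0.39. *Peg3* was at 0.69 and *Grb10* at 0.90. In TPM the highest level among the 6 mice was that of LFD 3 in 7 members, that of LFD 2 in 2 and that of HFD 2 in 1, and the lowest was that of LFD 1 in 5 and that of HFD 3 in 4. In log2 CPM, LFD 3 was highest in 5 members and LFD 2 in 4, and HFD 3 was lowest in 6 and LFD 1 in 4. LFD-fed mice thus held both the highest values of nearly all members and many of the lowest.

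**Figure D4:**
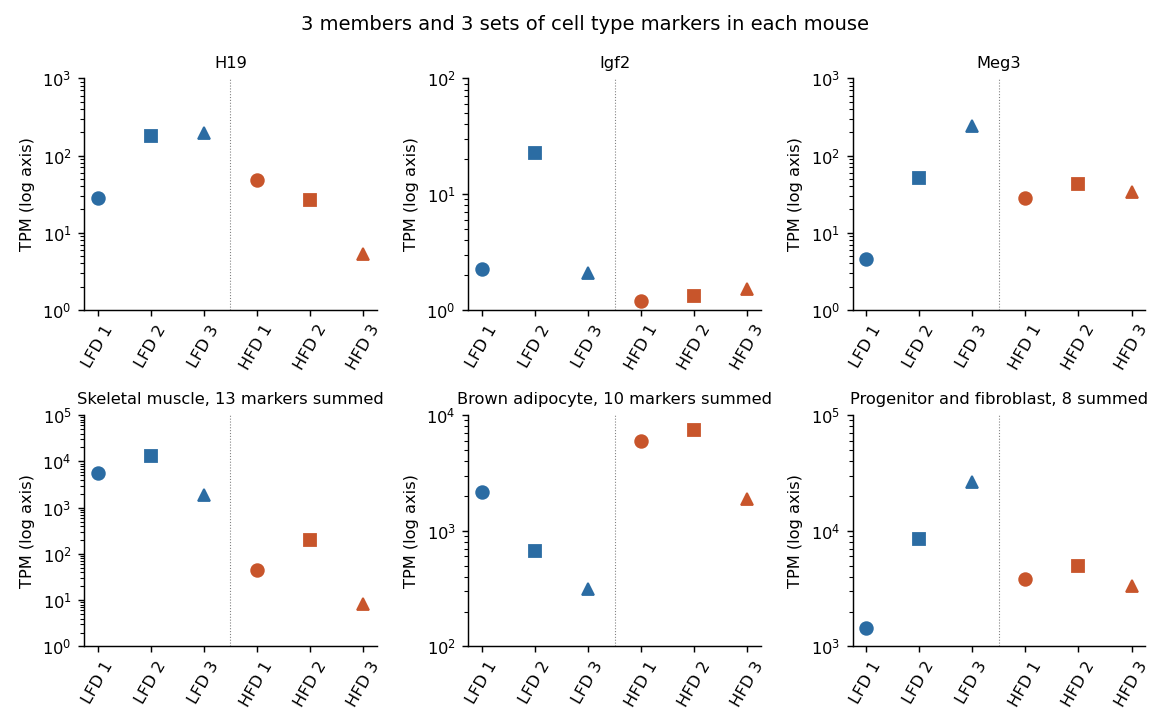
TPM on log axes of *H19*, *Igf2* and *Meg3* and the summed TPM of 3 sets of cell type markers in each mouse. *Igf2* and the muscle sum are both highest in LFD 2. *Meg3* and the progenitor and fibroblast sum, which is mostly *Col3a1*, are both lowest in LFD 1 and highest in LFD 3. *H19* in LFD 1 is within the range of the HFD-fed mice, and the muscle sum there is 5506 TPM. *H19* and the muscle sum are both lowest in HFD 3. The part of the markers in these genes was not tested.

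Other sets of markers were read beside the members. The 10 brown adipocyte markers summed to 6006, 7378 and 1883 TPM in HFD 1, 2 and 3 and to 2155, 670 and 313 TPM in LFD 1, 2 and 3, and 9 of the 10 had higher fitted levels in HFD-fed mice. The 6 general adipocyte markers summed to 4049 to 13699 TPM in LFD-fed and 6007 to 8234 TPM in HFD-fed mice. Macrophage (8 genes, 498 to 3858 TPM), endothelial (5 genes, 88.4 to 374 TPM), nerve (5 genes, 7.97 to 88.8 TPM) and smooth muscle (4 genes, 45.4 to 177 TPM) markers overlapped between the diets in their sums. Their part in the members' values was not tested.

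A list of 62 other imprinted genes of the mouse was examined, of which 60 were found by symbol and 49 were tested. *Peg3os* and *Mestit1* were not analysed here. In the fit 41 of the 49 were lower and 8 higher under HFD, while 54.4% of all tested genes were lower. Their log2 fold changes ran from -2.49 to 1.90 around a median of -0.35. At an unadjusted p under 0.05 there were 4 lower and 0 higher, beside 6.62% and 3.86% of all tested genes, and edgeR's smallest adjusted p in the list was 0.226. Under the study's criteria edgeR and DESeq2 each called 0 of them. In this fit the tested genes of the list therefore leaned to lower values, but none passed the study's criteria. With the replicate number as a block, *Rian*, *Mirg* and *Rtl1*, among others, turned positive, at 0.39, 0.60 and 0.34, while *Slc22a18* stayed at -1.98. The split into 41 lower and 8 higher thus depends on the fit.

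The 4 genes with an unadjusted p under 0.05 were *Slc22a18*, *Osbpl5*, *Sgce* and *Zdbf2*, of which *Osbpl5* and *Sgce* were named after their values were seen. *Slc22a18*, a transporter gene next to *Cdkn1c* on chromosome 7, was at 2.21, 2.98 and 2.10 TPM in LFD 1, 2 and 3 and at 0.65, 0.47 and 0.44 TPM in HFD 1, 2 and 3. The diets did not overlap, and its log2 fold change was -2.01 (standard error 0.49, edgeR adjusted p = 0.226), on 10 to 53 counts per mouse. DESeq2 gave it an adjusted p of 0.0192, above the study's limit of 0.01. *Osbpl5*, an oxysterol-binding protein gene of the same domain, was at 14.0, 19.2 and 25.1 TPM in LFD 1, 2 and 3 and at 7.19, 14.2 and 8.03 TPM in HFD 1, 2 and 3 (log2 fold change -0.89, standard error 0.24, edgeR adjusted p = 0.274). *Sgce*, which encodes epsilon-sarcoglycan, was at 33.6, 37.6 and 43.0 TPM in LFD 1, 2 and 3 and at 14.5, 20.1 and 18.2 TPM in HFD 1, 2 and 3 (log2 fold change -0.89, standard error 0.23, edgeR adjusted p = 0.257). The diets did not overlap in *Sgce* on either scale, and in *Osbpl5* they overlapped in TPM through LFD 1 and HFD 2 but not in log2 CPM. *Zdbf2* was at 0.23, 0.81 and 0.35 TPM in LFD 1, 2 and 3 and at 0.03 to 0.07 TPM in HFD-fed mice (log2 fold change -2.49, standard error 0.89, edgeR adjusted p = 0.406). Its diets overlapped in log2 CPM, where LFD 1, with 7 counts, was the lowest of all mice, and LFD 2 had 138 counts. The organic cation transporter gene *Slc22a2*, on the higher side, had at most 1.10 TPM (log2 fold change 1.90, standard error 1.18, edgeR adjusted p = 0.658).

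**Figure D5:**
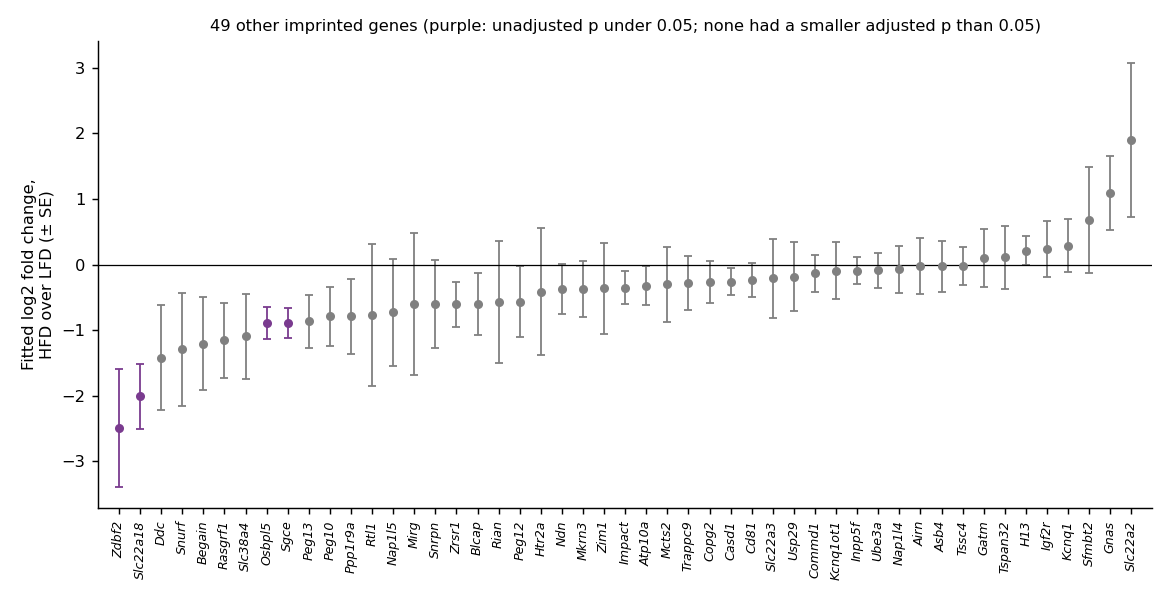
Fitted log2 fold change with its standard error for the 49 tested genes of the list of other imprinted genes, sorted by value, with those at an unadjusted p under 0.05 in purple. Of the 49 genes, 41 lie below 0, and the 4 purple genes have adjusted p-values from 0.226 to 0.406.

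Domain partners of the members gave further levels. *Igf2r*, which clears IGF2 from the cell surface, was at 17.0, 40.3 and 89.5 TPM in LFD 1, 2 and 3 and at 28.5, 53.9 and 53.9 TPM in HFD 1, 2 and 3. Here edgeR fitted a log2 fold change of 0.23 (standard error 0.43) with an adjusted p of 0.923. *Airn*, the noncoding RNA that silences the paternal *Igf2r*, was at 3.81 to 15.9 TPM and its log2 fold change was -0.03 (standard error 0.43, edgeR adjusted p = 0.991). Around *Cdkn1c*, *Cd81* was at 151 to 294 TPM (log2 fold change -0.24, standard error 0.26) and *Kcnq1* at 0.61 to 3.02 TPM (log2 fold change 0.29, standard error 0.41). *Phlda2*, a placental growth inhibitor, was listed at 0 in all mice but LFD 3, where it had 0.12 TPM, and *Ascl2* did not exceed 0.34 TPM.

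Of the 11 genes that maintain imprints, 10 were above 0 TPM in all mice. Of the 11 genes, all tested, 2 were lower and 9 higher under HFD in the fit, around a median of 0.10 in log2 fold change, while 45.6% of all tested genes were higher. Of the 11, 1 was higher at an unadjusted p under 0.05, beside 3.86% of all tested genes. This was *Dppa3*, which protects maternal methylation in the early embryo. It was at 0.94, 3.42 and 4.19 TPM in HFD 1, 2 and 3, listed at 0 in LFD 1, and at 0.19 and 0.83 TPM in LFD 2 and 3. Its log2 fold change was 3.24 (standard error 0.87, edgeR adjusted p = 0.266), on at most 44.8 counts per mouse. DESeq2 called it with an adjusted p of 0.00934, and over all fits the adjusted p lay between 0.00934 and 0.694. *Dppa3* is known to have pseudogene copies, and whether their reads entered its count was not tested. RSEM's posterior standard deviation was at most 7.33% of its count.

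Of 6 partners of *H19* or *Igf2* RNA, *Igf2bp1* and *Lin28b* were too low to be tested. *Igf2bp2*, whose protein binds *Igf2* mRNA, was at 3.76, 10.2 and 11.1 TPM in HFD 1, 2 and 3 and at 1.21, 1.90 and 7.26 TPM in LFD 1, 2 and 3. The diets overlapped in TPM and did not in log2 CPM, and its log2 fold change was 1.39 (standard error 0.57, edgeR adjusted p = 0.469). The other 3, *Igf2bp3*, *Elavl1* and *Mbd1*, had adjusted p-values of 0.635 or more.

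The tested genes whose centred log2 CPM over the 6 mice was closest to that of *H19* were *Col6a6*, *5930412G12Rik*, *Dact1*, *A730035I17Rik* and *Slc4a10*, with root-mean-square differences of 0.21 to 0.44 log2 units. *Col6a6* encodes a chain of type VI collagen, and it was at 1.76, 0.99 and 0.18 TPM in HFD 1, 2 and 3 and at 0.72, 7.70 and 5.32 TPM in LFD 1, 2 and 3. For *Igf2* they were *Prtn3*, *Fbxo32*, *C4b*, *Rapsn* and *Fam205c*, at 0.32 to 0.51 log2 units. All of these had their highest TPM in LFD 2, such as *Prtn3*, with 16.9 TPM there against 0.77 to 1.74 TPM in the other mice. *Rapsn* encodes a scaffold protein of the neuromuscular junction and *Fbxo32* a ubiquitin ligase of muscle atrophy. The closest to *Igf2* was *Prtn3*, however, and *Rapsn* was at 0.51 to 0.76 TPM outside LFD 2. The part of muscle in these patterns was not tested.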

How the data were processed

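BAT of 3 HFD-fed and 3 LFD-fed mice was grouped by the diets and replicate numbers of the labels. The authors trimmed reads with Trimmomatic 0.36, and aligned and quantified them with RSEM 1.3.0 on GRCm38.p4 with an Ensembl annotation. Per mouse, the authors deposited expected counts, which share a read matching several genes between them, TPM, which is scaled to a fixed total, bounds of the TPM, and the posterior standard deviation of each count, used here as a score of mapping uncertainty. Since mitochondrial transcripts entered the TPM total, TPM was compared with log2 CPM (TMM, prior count 2).

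Counts were rounded, filtered with filterByExpr and tested over 17668 genes with edgeR 4.0.16 (quasi-likelihood, TMM, Benjamini-Hochberg) in R 4.3.3. The fitted standard error is the log2 fold change over the square root of F. DESeq2 1.42.0, other size factors, filters and pseudocounts (1 and 0.1 on TPM), a replicate block and each mouse left out were alternatives. The members and lists were chosen with earlier results of these data known. Named genes were the members and the 5 genes most like *H19* and *Igf2*. Of the other imprinted, maintenance and partner genes, they were the domain partners, the called genes and the 6 with the largest changes within these lists.

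Total counts of 17156991 to 21603487 per mouse limit genes under about 10 counts, and counting error adds to the differences among mice. Mice of a diet differed far beyond counting noise, with chi-square over its degrees of freedom at 71.7 to 558. Same-numbered mice of the diets deviated together from the mean of their diet across genes, with r of 0.229, 0.498 and 0.522 in the 3 pairs. In the other 6 pairs r was -0.528 to 0.0532. Deviations within a diet cancel out, so positive values in the same-numbered pairs pull the other pairs down, and those are no separate evidence of pairing. The replicate block pairs mice by the numbers in the labels. Positions are from GENCODE on GRCm38, and promoter and microRNA sequences from RefSeq on GRCm38.p6.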

Additional observations from a re-analysis of the deposited data

How the results depend on the processing

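Under the study's criteria edgeR called 0 genes with every filter, scaling, block and left-out mouse tried, and DESeq2 with default settings called 411 genes, 1 of them among the imprint maintenance and partner genes (*Dppa3*) and 0 among the members and the other imprinted genes. The median log2 fold change of the members was -0.99, and it ranged from -1.52 to -0.42 with a mouse left out. With the replicate block, which pairs mice by number, the median was -0.65, *Meg3* turned to 0.030, and 1548 genes were lower and 1546 higher at an unadjusted p under 0.05, against 1169 and 682 without the block. At an adjusted p under 0.05 with no limit on the fold, edgeR gave 0 genes in the unblocked fit of all mice, 184 with the block and 222 without LFD 3. Apart from the left-out mice, 0 of 89 values of single members moved by more than the spread between mice, and 1 changed sign (*Meg3* with the block). The spread used was the within-diet SD of log2 CPM, as wide as 1.65 for *Dlk1*, so large shifts could stay inside it. As a difference of log2 TPM with a pseudocount of 0.1, *H19* was at -2.38, against -1.64 in the fit. *Meg3* was at -0.18 there, against -0.91, and both counted as unmoved. With a mouse left out, 2 of 60 values moved by more than that spread (*Igf2* without LFD 2 and *Mest* without LFD 3), and 7 values of 4 members changed sign. The ranges were -1.95 to 0.28 for *Dlk1*, -1.47 to 0.68 for *Meg3*, -0.29 to 1.56 for *Mest*, -1.07 to 0.53 for *Nnat* and -2.97 to -0.70 for *Igf2*. The cause was not tested. *Dlk1* had no value where at least 10 counts were required in every mouse. Depth limits *Dlk1*, with 5 counts in LFD 1, and *Igf2*, with about 50 in HFD 3.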
